A study of Mus musculus with 18 samples.

Results

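Nodal and Activin are ligands of the transforming growth factor beta family that bind the same receptors and act through the transcription factors SMAD2 and SMAD3. The 9 genes described here, of 55471 listed in the expression tables, were taken by name as members of this pathway: the ligand genes Nodal and Gdf3, the convertase genes Furin and Pcsk6, the coreceptor gene Tdgf1, the receptor gene Acvr2b, the antagonist genes Lefty1 and Lefty2, and Smad7, which encodes an intracellular inhibitor. Pro-Nodal is cut by FURIN and PCSK6, and the cut ligand needs the coreceptor TDGF1 (Cripto) to bind an Activin receptor complex. LEFTY1, LEFTY2 and SMAD7 are themselves induced by the pathway and dampen it, so they are often read as markers of its activity. In mouse embryonic stem cells (ESCs) the pathway is active from ligands that the cells make, and in the embryo it maintains the epiblast and forms the primitive streak.

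RNA-Seq was run on 18 libraries of 9 groups, with 2 libraries in each group. The ESCs came from a single line that carried Oct4-GFP and an OSKM cassette (Oct4, Sox2, Klf4 and c-Myc) under a doxycycline (DOX) promoter with M2rtTA in Rosa26. Its strain is given as a cross of (C57BL/6 x 129S4/SvJae)F1 with (CBA/CaJ X C57BL/6J)F2. OSKM-ESCs had been moved out of 2iL, which is N2B27 with the MEK inhibitor PD0325901, the GSK3 inhibitor CHIR99021 and LIF, into N2B27 with DOX for 18, 25 or 38 days, while 2iL-ESCs of the same days stayed in 2iL. Both media therefore differ in the transgenes, both inhibitors and LIF at once, and the effects of these cannot be told apart. Induced pluripotent stem cell (iPSC) clones of strain (C57BL/6 x 129S4/SvJae)F1 were made from embryonic fibroblasts (MEFs) with the same transgenes. The OSKM-iPSC clones 1 and 3 (passages 7 and 6) were reprogrammed and kept in N2B27 with DOX, and the 2iL-iPSC clones 3 and 6 (passages 2 and 3) were reprogrammed in 2iL with DOX. The labels give N2B27 with DOX as the daily medium of the 2iL-iPSC clones, whereas the study's methods place such clones in 2iL without DOX, so their last medium is uncertain. Passage number and medium cannot be told apart in the iPSCs. The MEFs, of the same strain as the iPSCs, were at passage 4 in DMEM with 10% FBS. Cells were bulk cultures, and fewer cells of a type cannot be told apart from less RNA per cell.

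The values are FPKM, fragments per kilobase of transcript scaled to the fragments mapped in the library. FPKM is per length and was used to rank genes, but the deposited coverage (mean reads per base) can order them otherwise. In OSKM-ESC library 1 of day 18, Furin was below Pcsk6 in FPKM (5.45 against 6.96) and above it in coverage (12.4 against 3.28). Depth in reads is unknown. Between 11303 and 12095 genes were above 1 FPKM in a library. The median over these genes of coverage per unit of FPKM lay between 2.99 and 3.62 in all libraries. Single genes departed from it, such as the pathway gene Nedd4l, with a coverage of 0.353 at 2.63 FPKM in OSKM-ESC library 1 of day 18. All 7 pluripotency markers checked exceeded a mean of 1 FPKM in the ESC and iPSC groups, with sums of 1083 to 1784 in OSKM-ESCs and 2419 to 2654 in 2iL-ESCs. The 7 did not move alike. Over all days of ESCs, mean Nanog was lower in OSKM-ESCs (38.7 against 247 FPKM), Pou5f1 was alike (700 against 703) and Utf1 was higher (302 against 140). The OSKM cassette carries Oct4 (Pou5f1) and Sox2, so their values under DOX can include transgene reads. The same holds for the marker sums, and transgene and endogenous reads were not separated here. Over 9 fibroblast markers the sums were 973 to 1113 in MEFs, 14.2 to 26.9 in OSKM-ESCs and 2.94 to 5.27 in 2iL-ESCs. They were 69.6 in OSKM-iPSC clone 1 and 3.60 in clone 3. Feeder fibroblasts were used in these cultures, and MEFs express Furin, Smad7 and Pcsk6. No marker of the 8 endoderm genes was above 4 FPKM in an ESC library, and their sums stayed at or under 8.37 in OSKM-ESCs and 2.12 in 2iL-ESCs. Of these 8, Foxa2 was higher in OSKM-ESCs (mean 1.34 against 0.00923 FPKM over all days, adjusted p = 0.00415, limma). So was Dab2 (1.63 against 0.126, adjusted p = 8.77e-07), also on each day. Dab2 is not particular to endoderm here: it was 34.9 and 37.8 FPKM in MEFs, and 7.08 in OSKM-iPSC clone 1 against 0.837 in clone 3. At day 38 Foxa2 was 2.89 and 3.31 FPKM against 0 in both 2iL-ESC libraries, and Sox17 was also higher (mean 1.77 against 0.17, adjusted p = 0.00764), while it was under the filter on the other days. Their part in the Lefty1, Cer1 and T differences was not tested.

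In GRCm38, Nodal lies at chr10:61417972-61425338 on the + strand, Gdf3 at chr6:122605403-122610087 (-) and Tdgf1 at chr9:110939603-110946158 (-). Acvr2b is at chr9:119402118-119434995 (+), Furin at chr7:80388585-80405436 (-) and Pcsk6 at chr7:65861734-66050386 (+). Lefty2 (chr1:180893108-180899103) and Lefty1 (chr1:180935022-180938400) lie near each other on the + strand. Reads that map to more than 1 place were dropped by the authors, which can cost a gene with a near copy part of its signal. In GENCODE M21 transcripts, 5.85% of the 100-base windows of Lefty1 and 3.86% of those of Lefty2 also occur in the other Lefty gene. For Tdgf1 the share was 3.17%, all with the pseudogene Tdgf1-ps1, and for Pcsk6 and Furin it was 1.08% and 0.383%. Nodal, Gdf3, Acvr2b and Smad7 had none.

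The promoters of 3 members are shown because the genes differed in their results: Nodal did not pass the test over all days, Tdgf1 was lower in OSKM-ESCs and Furin was higher. RefSeq promoters of GRCm38.p6 were at hand for 5 members (Nodal, Tdgf1, Acvr2b, Pcsk6 and Furin, the last with 2 starts). Each sequence is the 250 bases before the start, 5′ to 3′ on the gene's strand, and capitals mark matches on either strand to ATGCAAAT (octamer, bound by OCT4), ACAAAG (SOX factors), CCACCC (KLF factors), CACGTG (E-box, bound by MYC), AATNNACA (FOXH1, the SMAD partner) or CAGAC (SMAD). Nodal is from chr10:61417722-61417971 (+), Tdgf1 from chr9:110946159-110946408 (-) and Furin from the upstream start, chr7:80405437-80405686 (-).
Nodal: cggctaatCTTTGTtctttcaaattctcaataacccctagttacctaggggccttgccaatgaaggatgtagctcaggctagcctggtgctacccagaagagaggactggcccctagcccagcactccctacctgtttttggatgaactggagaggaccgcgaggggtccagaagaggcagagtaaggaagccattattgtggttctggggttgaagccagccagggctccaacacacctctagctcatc
Tdgf1: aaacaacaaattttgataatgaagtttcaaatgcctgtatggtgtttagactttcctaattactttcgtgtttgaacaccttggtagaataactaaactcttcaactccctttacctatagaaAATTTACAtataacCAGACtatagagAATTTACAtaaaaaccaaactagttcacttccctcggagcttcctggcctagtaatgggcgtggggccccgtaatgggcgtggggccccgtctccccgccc
Furin: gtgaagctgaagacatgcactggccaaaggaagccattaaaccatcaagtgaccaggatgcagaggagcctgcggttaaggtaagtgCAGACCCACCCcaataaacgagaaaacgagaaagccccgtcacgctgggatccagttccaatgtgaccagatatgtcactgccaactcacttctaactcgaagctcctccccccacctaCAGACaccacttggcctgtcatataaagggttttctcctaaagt
The Tdgf1 window held 2 FOXH1 matches, which start 127 and 101 bases before the gene's start, with a SMAD match between them at 113 bases. The Furin window held 2 SMAD matches, at 163 and 44 bases, and a KLF match at 158 bases that adjoins the first of these without overlap. The Nodal window held a single SOX match, at 242 bases. Over all 32851 promoters of this length, 10.9% held the FOXH1 letters, 42.2% the SMAD letters, 28.1% the KLF letters, 16.5% the SOX letters, 6.02% the E-box and 1.60% the octamer. Such matches are letters in a window and not evidence of binding.

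Over all days, 4 members were higher in OSKM-ESCs (Lefty1, Lefty2, Acvr2b and Furin), 4 were lower (Tdgf1, Gdf3, Pcsk6 and Smad7), and Nodal did not pass the test (limma on log2(FPKM + 1) with day as a covariate, Benjamini-Hochberg adjusted p under 0.05 over 14016 genes). Of all genes tested, 29.5% were higher and 24.4% lower, and the members' 8 of 9 is to be read against these shares. The median log2 difference was 0.10 over the members and 0.03 over all genes. Lefty1 rose most, by 2.29 ± 0.26 (SE) on the log2 scale, and Tdgf1 fell by 1.23 ± 0.10. Lefty1, Tdgf1, Acvr2b and Pcsk6 kept their calls when any day was left out. Without day 18 only 2 members were higher, since Lefty2 (adjusted p = 0.235) and Furin (0.116) lost their calls, and without day 38 only 2 were higher and 2 lower. Without day 25 Nodal was called higher (0.36 on the log2 scale, adjusted p = 0.0188) and Smad7 lost its call, which gave 5 members higher and 3 lower. Calls over all genes changed too. With all days 4131 genes were higher and 3415 lower of 14016. Without day 18 it was 3583 and 3320 of 13738, and without day 25 it was 4441 and 3009 of 13634. Without day 38 it was 2955 and 2738 of 13564.

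**Figure D1:**
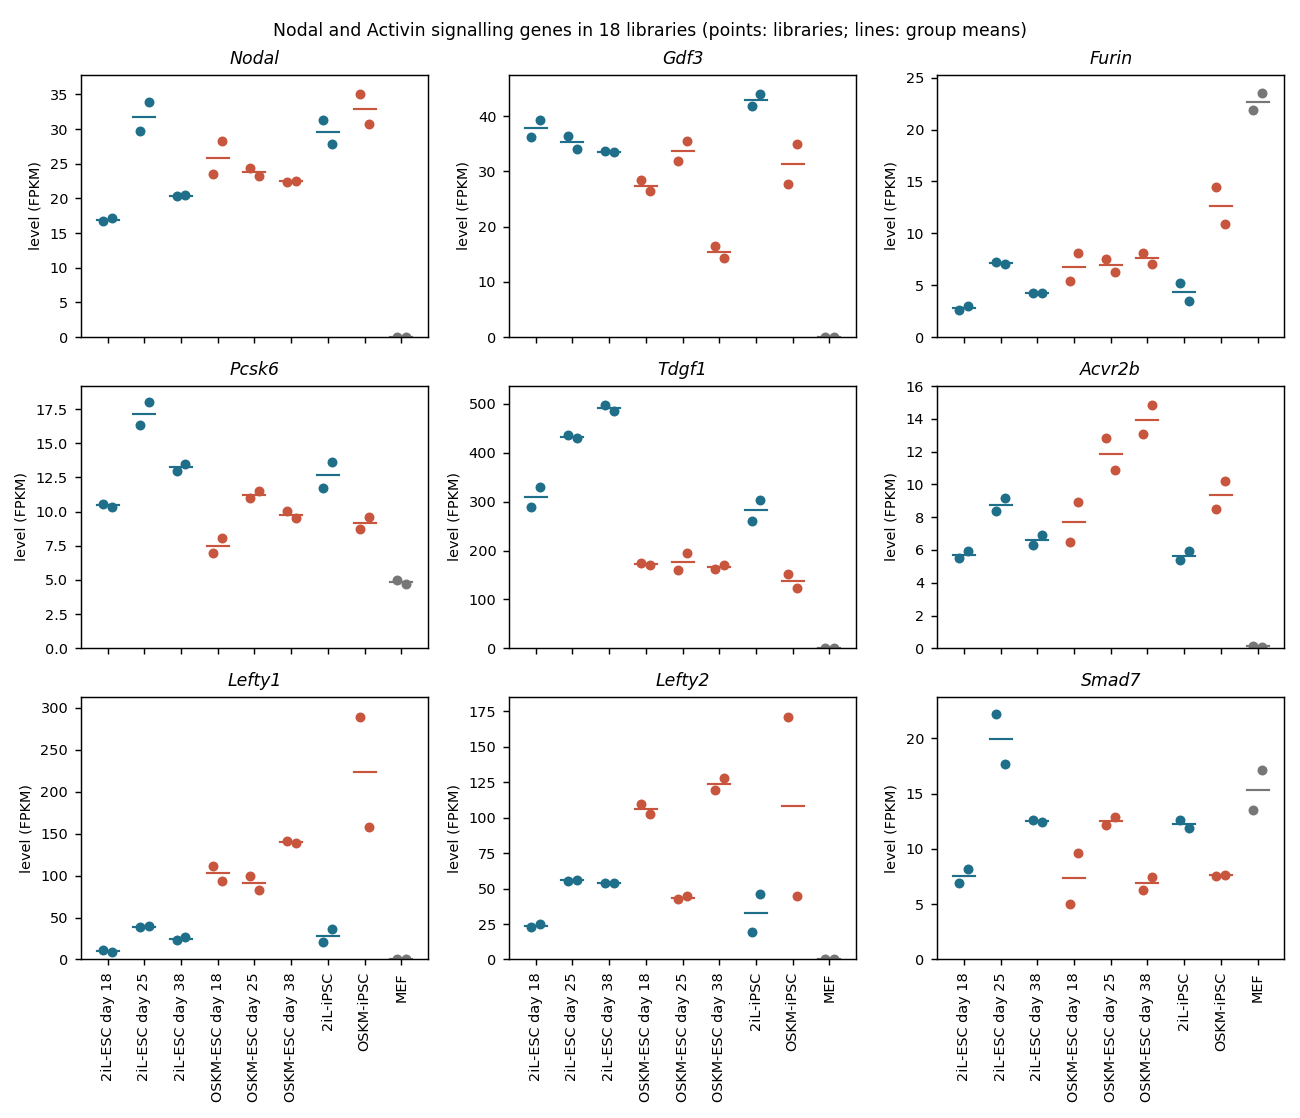
Level of the 9 genes in each of the 18 libraries (y axis, FPKM from 0, with its own scale in each panel) by group (x axis). Points are libraries (2 per group) and short lines are group means. Lefty1 is above 83 FPKM in each OSKM-ESC library and below 40 in each 2iL-ESC library, and Tdgf1 shows the opposite order.

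The ligand gene Nodal stood at 23.5 and 28.3 FPKM at day 18, 24.4 and 23.2 at day 25, and 22.4 and 22.5 at day 38 in OSKM-ESCs. In 2iL-ESCs it was 16.7 and 17.1, then 29.7 and 33.9, then 20.3 and 20.5. Levels in OSKM-ESCs thus lay inside the range of 2iL-ESCs, whose day 25 libraries were the highest and day 18 libraries the lowest of the 12. The difference between media over all days was 0.10 ± 0.13 on the log2 scale (adjusted p = 0.531, limma; exact 2-sided permutation p = 0.543, 6 libraries against 6). It was higher in OSKM-ESCs at day 18 (0.58 ± 0.13, adjusted p = 0.0116) and lower at day 25 (-0.40 ± 0.10, adjusted p = 0.0265), and at day 38 the difference was 0.13 ± 0.05 (adjusted p = 0.0771). The day 18 call was lost in 3 of the 4 fits that left out a library (adjusted p = 0.0539 to 0.111), and so was that of day 25 (0.0618 to 0.255), which also did not pass without a filter on low values (0.0597). Over all days the result rests on the days included, with 0.36 without day 25 and -0.13 without day 18 (adjusted p = 0.0188 and 0.359). The difference itself varied between days (adjusted p = 0.00162). The days differed in 2iL-ESCs (adjusted p = 0.00105) and did not pass the test in OSKM-ESCs (adjusted p = 0.40).

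Gdf3, a ligand that also uses TDGF1, ranged from 14.4 to 35.4 FPKM in OSKM-ESCs with a median of 27.4, and from 33.4 to 39.4 in 2iL-ESCs with a median of 35.2. The ranges overlapped only through the second OSKM-ESC library of day 25, a day on which OSKM-ESCs had 31.9 and 35.4 and 2iL-ESCs 36.4 and 34.1. At day 38 OSKM-ESCs held 16.5 and 14.4 against 33.6 and 33.4, a fall of 1.07 on the log2 scale (SE 0.08, adjusted p = 0.000235). At day 18 the difference was -0.45 ± 0.11 (adjusted p = 0.0183) and at day 25 it was -0.07 ± 0.10 (adjusted p = 0.609). Over all days Gdf3 fell by 0.53 ± 0.13 (adjusted p = 0.00554; exact permutation p = 0.0108). Without day 38 it was lower by a log2 difference of -0.26, which did not pass (adjusted p = 0.076).

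Both convertase genes were measured at a few FPKM and moved in opposite directions. Pcsk6, which encodes PACE4, was 6.96 and 8.03 FPKM at day 18, 11.0 and 11.5 at day 25, and 10.1 and 9.51 at day 38 in OSKM-ESCs, against 10.5 and 10.4, 16.4 and 18.0, and 13.0 and 13.5 in 2iL-ESCs. OSKM-ESCs were below 2iL-ESCs on each day. Its difference was steady, -0.43 ± 0.12, -0.57 ± 0.10 and -0.40 ± 0.07 on the 3 days (adjusted p = 0.0289, 0.00772 and 0.00476), and the test of whether it varied between days did not pass (adjusted p = 0.493). Over all days it was -0.47 ± 0.07 (adjusted p = 8.45e-05; exact permutation p = 0.0173).

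Furin was 5.45 and 8.11 FPKM at day 18, 7.57 and 6.25 at day 25, and 8.09 and 7.08 at day 38 in OSKM-ESCs. In 2iL-ESCs it was 2.62 and 3.03, 7.22 and 7.04, and 4.27 and 4.23. At days 18 and 38 OSKM-ESCs were above 2iL-ESCs, while at day 25 the libraries overlapped, and the 2iL-ESC level was higher on that day than on the others. The difference was 1.0 ± 0.19 at day 18, -0.04 ± 0.12 at day 25 and 0.71 ± 0.09 at day 38 (adjusted p = 0.00617, 0.787 and 0.00176), and it varied between days (adjusted p = 0.0122). MEFs, at 21.9 and 23.5 FPKM, had the highest level of any group. Fibroblast markers were higher in OSKM-ESCs than in 2iL-ESCs, but their highest sum of 26.9 compares with at least 973 in MEFs, and their part in the Furin difference was not tested.

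Tdgf1 was the most abundant member in each ESC group. OSKM-ESCs held 174 and 171 FPKM at day 18, 159 and 194 at day 25, and 162 and 171 at day 38. In 2iL-ESCs it was 289 and 329, then 436 and 429, then 497 and 486. No OSKM-ESC library reached the lowest 2iL-ESC library, and the exact permutation p of 0.00216 was the smallest that 6 against 6 can give. The 6 libraries of a medium are 2 at each of 3 days of a single line. They may not be independent cultures, so this p describes these libraries. The difference was -0.84 ± 0.12 at day 18, -1.29 ± 0.11 at day 25 and -1.56 ± 0.04 at day 38, and it varied between days (adjusted p = 0.00774). Levels differed between days in 2iL-ESCs (adjusted p = 0.00163), whereas the test of days in OSKM-ESCs did not pass (adjusted p = 0.826).

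Acvr2b, a type II receptor for Activin and Nodal, was 6.46 and 8.94 FPKM at day 18, 12.8 and 10.9 at day 25, and 13.1 and 14.8 at day 38 in OSKM-ESCs, against 5.53 and 5.91, 8.35 and 9.17, and 6.32 and 6.90 in 2iL-ESCs. OSKM-ESCs were above 2iL-ESCs on each day, with differences of 0.36 ± 0.16, 0.40 ± 0.12 and 0.97 ± 0.09 (adjusted p = 0.125, 0.0443 and 0.000532). The test of variation between days gave an adjusted p of 0.0533. Over all days Acvr2b rose by 0.58 ± 0.12 (adjusted p = 0.00143; exact permutation p = 0.0195).

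Lefty1 had the largest difference between media. OSKM-ESCs held 112 and 93.2 FPKM at day 18, 99.1 and 83.4 at day 25, and 142 and 139 at day 38. In 2iL-ESCs it was 11.2 and 8.93, 38.8 and 39.5, and 23.4 and 26.4. The groups did not overlap on any day, and the ratio of the means over all days was 4.5. The log2 difference was 3.23 ± 0.15 at day 18, 1.19 ± 0.11 at day 25 and 2.45 ± 0.07 at day 38 (adjusted p = 3.27e-05, 0.000966 and 1.58e-05), and it varied between days (adjusted p = 0.000126). The exact permutation p over all days was 0.00216.

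Lefty2 followed Lefty1 at 2 of the 3 days. In OSKM-ESCs it was 110 and 103 FPKM at day 18, 42.4 and 44.4 at day 25, and 120 and 128 at day 38, against 22.7 and 25.1, 55.6 and 55.9, and 53.8 and 53.8 in 2iL-ESCs. At day 25 the order was turned: the OSKM-ESC libraries were below the 2iL-ESC libraries. The difference was 2.10 ± 0.11, -0.35 ± 0.08 and 1.19 ± 0.05 (adjusted p = 4.52e-05, 0.0183 and 4.22e-05), and its variation between days had the smallest adjusted p of the 9 (2.44e-06). The difference over all days, 0.98 ± 0.30 (adjusted p = 0.0159; exact permutation p = 0.0325), is thus a mean of unlike days and did not pass without day 18 or without day 38. With all 9 groups in a single fit the Lefty2 calls of days 25 and 38 were both lost (adjusted p = 0.596 and 0.0626), and the day 25 call was also lost without either 2iL-ESC library (0.182 and 0.19).

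Smad7, on chromosome 18 at 75367529 to 75395935 (+ strand), encodes a protein that blocks receptor signalling inside the cell. It was 5.03 and 9.68 FPKM at day 18, 12.2 and 12.9 at day 25, and 6.32 and 7.46 at day 38 in OSKM-ESCs. In 2iL-ESCs it was 6.94 and 8.20, 22.2 and 17.7, and 12.6 and 12.4. The groups overlapped at day 18 and not later. Its difference was -0.09 ± 0.26, -0.62 ± 0.13 and -0.78 ± 0.09 on the 3 days (adjusted p = 0.806, 0.0142 and 0.00126). Over all days Smad7 fell by 0.50 ± 0.15 (adjusted p = 0.015, limma with day as a covariate). The exact permutation test, which takes no account of day, gave p = 0.139. The limma call was lost without day 25 (adjusted p = 0.101) and without day 38 (adjusted p = 0.182). Smad7 and the Lefty genes, all targets of the pathway, lay on opposite sides of 0 over all days.

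**Figure D2:**
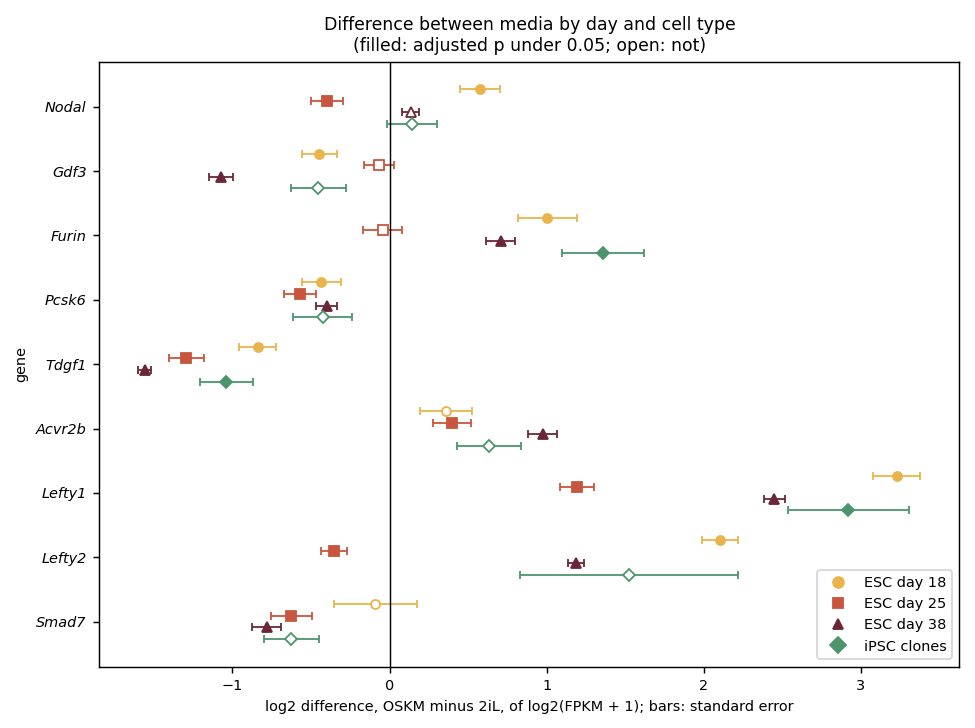
Difference between OSKM and 2iL cultures (x axis, log2 of FPKM + 1) for each gene (y axis) at 3 days of ESCs and in the iPSC clones. Symbols are estimates from 2 libraries against 2, bars are standard errors, and filled symbols passed an adjusted p of 0.05. Tdgf1 and Pcsk6 are left of 0 and Lefty1 and Acvr2b right of 0 in all 4 contrasts, and Nodal and Lefty2 change sides between days.

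By day, 4 members were higher and 3 lower at day 18, 2 higher and 5 lower at day 25, and 4 higher and 4 lower at day 38. Among all genes tested, 25.7% were higher and 17.7% lower at day 18, 20.7% and 25.3% at day 25, and 34.6% and 25.2% at day 38. The difference between media varied with day for 6 of the 9 members (Nodal, Gdf3, Tdgf1, Lefty1, Lefty2 and Furin), against 37.9% of all genes. Within 2iL-ESCs the days differed for 8 of the 9, against 50.8% of all genes, with Gdf3 the exception (adjusted p = 0.156). Within OSKM-ESCs they differed for 5 (Gdf3, Acvr2b, Lefty1, Lefty2 and Pcsk6), against 38.6%. In 2iL-ESCs Nodal, Lefty1, Lefty2, Acvr2b, Pcsk6, Furin and Smad7 all had their highest mean at day 25. No culture date is given, so a day and the handling of that day's cultures cannot be told apart.

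The order of the mean levels in FPKM is a description for each medium, and the deposited coverage can order genes otherwise. In OSKM-ESCs the means over all days ran Tdgf1, Lefty1, Lefty2, Gdf3, Nodal, Acvr2b, Pcsk6, Smad7 and Furin. Lefty1 and Lefty2 overlapped, as did Gdf3 and Nodal and each neighbouring pair from Acvr2b to Furin. In 2iL-ESCs they ran Tdgf1, Lefty2, Gdf3, Lefty1, Nodal, Pcsk6, Smad7, Acvr2b and Furin, and only Tdgf1 stood clear of its neighbour. Ratios within a library, chosen after the values were seen, put this on a scale that a common factor in a library does not change, and they are given with no test. Lefty1 per Nodal was 3.29 to 6.32 in OSKM-ESCs (mean 4.70 ± 1.29 SD, n = 6) and 0.522 to 1.31 in 2iL-ESCs (1.02 ± 0.34). The groups did not overlap. Tdgf1 per Nodal was 6.03 to 8.35 against 12.7 to 24.5, and Furin per Pcsk6 was 0.544 to 1.01 against 0.249 to 0.441, again without overlap. Lefty2 per Nodal (1.74 to 5.70 against 1.36 to 2.65) and Gdf3 per Nodal (0.639 to 1.53 against 1.01 to 2.30) overlapped. Lefty1 per Lefty2 was 0.908 to 2.34 in OSKM-ESCs and 0.355 to 0.706 in 2iL-ESCs, and all OSKM-ESC libraries were above all 2iL-ESC libraries.

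**Figure D3:**
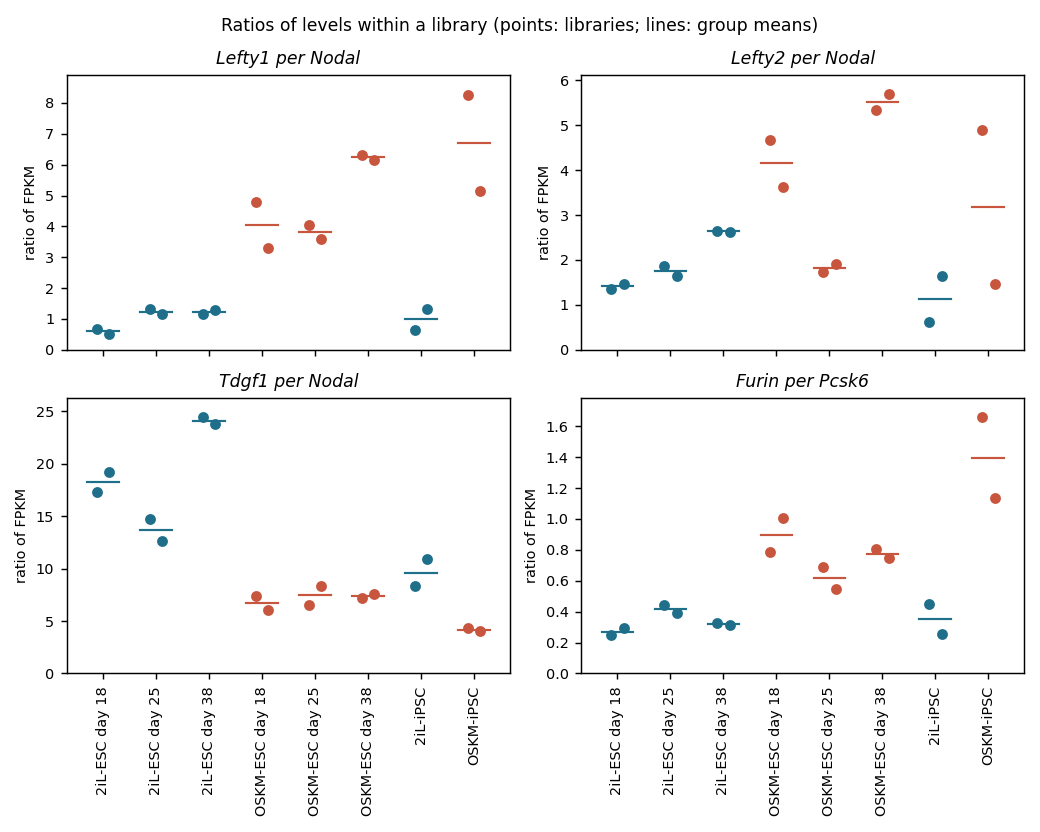
Ratios of FPKM within each of 16 ESC and iPSC libraries (y axis, from 0) by group (x axis). Points are libraries and lines are means of 2. Lefty1 per Nodal is above 3 in all OSKM libraries and below 1.4 in all 2iL libraries, and Tdgf1 per Nodal is lower in the OSKM group at each day.

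The iPSC clones asked whether the difference between media is also seen in cells made from fibroblasts. Lefty1 and Furin were higher and Tdgf1 was lower in OSKM-iPSCs than in 2iL-iPSCs, and the other 6 members did not pass (limma, adjusted over 13653 genes), against 5% of all genes higher and 2.96% lower. Lefty1 was 289.7 FPKM in OSKM-iPSC clone 1 and 158 in clone 3, against 20.2 in 2iL-iPSC clone 3 and 36.8 in clone 6. All 4 clones kept the order seen in ESCs, and the log2 difference was 2.92 ± 0.39 (adjusted p = 0.0198). Tdgf1 was 152 and 123 FPKM in OSKM-iPSCs against 261 and 304 (difference -1.04 ± 0.17, adjusted p = 0.0299). Furin was 14.4 and 10.9 FPKM against 5.26 and 3.47 (difference 1.36 ± 0.26, adjusted p = 0.0408).

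These iPSC calls rest on 2 clones per group. Leaving out 2iL-iPSC clone 3 or clone 6 leaves a lone library in that group, and calls were then lost over all genes, not in the members alone. The Lefty1 difference was 2.50 without clone 3 and 3.34 without clone 6. OSKM-iPSC clone 1 was the clone with fibroblast markers (Col1a2, a collagen gene, at 36.1 FPKM against 0.130 in clone 3 and 516 and 439.6 in MEFs). Without that clone the Lefty1 difference was 2.48 (adjusted p = 0.0442), that of Tdgf1 was -1.19 (adjusted p = 0.0456) and that of Furin was 1.17 (adjusted p = 0.0871). Furin also missed the threshold without clone 3 of OSKM-iPSCs (adjusted p = 0.0581), and Tdgf1 did so too (adjusted p = 0.0622).

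Among members that did not pass, Nodal was 35.0 and 30.7 FPKM in OSKM-iPSCs and 31.4 and 27.9 in 2iL-iPSCs, and the clones overlapped (difference 0.14 ± 0.16, adjusted p = 0.579). Lefty2 was 171 FPKM in OSKM-iPSC clone 1 and 44.6 in clone 3, against 19.2 and 45.9. Clone 3 thus lay within the 2iL range, and the Lefty2 difference was 1.53 ± 0.69 with clone 1 and 0.57 without it (adjusted p = 0.21 and 0.531). Acvr2b was 8.48 and 10.2 against 5.37 and 5.94, Gdf3 was 27.7 and 35.0 against 41.9 and 44, Pcsk6 was 8.71 and 9.60 against 11.7 and 13.6, and Smad7 was 7.54 and 7.65 against 12.6 and 11.9. These 4 did not overlap and lay on the side they took in ESCs, with adjusted p between 0.0874 and 0.198. With 2 clones against 2 there can be no exact permutation p under 0.333.

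The difference between media was compared between iPSCs and ESCs over all days by an interaction term. Furin alone passed, with a difference larger by 0.80 ± 0.23 in iPSCs (adjusted p = 0.041), against 14.2% of all genes. It did not pass with a pseudocount of 0.1, without a filter on low values, after median-ratio scaling or on TPM. For Lefty1 the term was 0.63 ± 0.32 (adjusted p = 0.217), and for the other 7 members the adjusted p was at least 0.401.

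Against the MEFs they came from, OSKM-iPSCs had 7 members higher (Nodal, Gdf3, Tdgf1, Acvr2b, Lefty1, Lefty2 and Pcsk6) and 2 lower (Furin and Smad7), where 34.0% of all genes were higher and 26.4% lower. In 2iL-iPSCs the same 7 were higher and Furin was lower, against 40.6% and 37.4% of all genes, and Smad7 did not pass (-0.29 ± 0.14, adjusted p = 0.112). Both comparisons share the MEF libraries. Nodal, Tdgf1 and Lefty2 were listed at 0 in both MEF libraries, Gdf3 at 0.0432 and 0, Acvr2b at 0.127 and 0.0929, and Lefty1 at 0.632 and 0.282. MEFs kept Furin (21.9 and 23.5 FPKM), Smad7 (13.5 and 17.1) and Pcsk6 (4.99 and 4.74), genes that act in many tissues. Furin fell by 0.81 ± 0.17 in OSKM-iPSCs and by 2.16 ± 0.18 in 2iL-iPSCs on the log2 scale. Leaving out either MEF library leaves a lone MEF library, and calls in OSKM-iPSCs were then lost over all genes, not in the members alone. With both libraries all 9 members were called, to be read against the 34.0% of all genes higher and 26.4% lower. The sizes changed little with 1 library left out, at 4.99 to 5.17 on the log2 scale for Nodal, 6.95 to 7.26 for Tdgf1 and 4.81 to 5.14 for Gdf3, and the highest adjusted p of these 3 was 0.0652.

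The other genes of the pathway were read from a list of 39, of which 34 were tested over all days of ESCs. Of these, 16 were higher and 4 lower in OSKM-ESCs, against 29.5% and 24.4% of all genes, with a median log2 difference of 0.34 against 0.03 for all genes. Among the 6 transducers, 4 were higher (Smad3, Smad4, Foxh1 and Zfyve9) and Smad2 and Trim33 did not pass. Smad3, which carries the signal to the nucleus, was 5.37 to 8.76 FPKM in OSKM-ESCs and 1.55 to 4.48 in 2iL-ESCs (difference 1.10 ± 0.14, adjusted p = 4.92e-05). MEFs had 15.1 and 15.7 FPKM of Smad3, and the part of feeder fibroblasts in its difference was not tested. Foxh1, the DNA-binding partner of the SMADs at Nodal targets, was 54.0 to 83.0 FPKM against 26.6 to 43.7 (difference 0.77 ± 0.15, adjusted p = 0.00111).

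Of 7 target genes, Fgf8, T and Lhx1 were higher, Gsc was lower, and Mixl1, Eomes and Pmepa1 did not pass. Lhx1 and Gsc were near the floor. Among ESC libraries, Lhx1 was above 1 FPKM only in OSKM-ESCs of day 38 (2.76 and 2.23). Gsc was above 1 FPKM only in 2iL-ESCs of day 25 (1.82 and 1.54), and at day 38 it was 0.792 and 0.897 in OSKM-ESCs against 0.773 and 0.561. T, the primitive streak gene Brachyury, was 34.3 and 48.9 FPKM at day 18, 13.8 and 13.3 at day 25, and 194 and 198 at day 38 in OSKM-ESCs, and 1.18 to 6.35 in 2iL-ESCs. It was highest at day 38 and lowest at day 25, the day on which Lefty2 was also lowest in OSKM-ESCs. Fgf8, a growth factor of the streak, was 4.07 to 51.6 FPKM in OSKM-ESCs and at most 0.40 in 2iL-ESCs (difference 3.70 ± 0.40, adjusted p = 9.92e-06). T and Fgf8 are also targets of WNT and FGF signalling.

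Among the 5 other extracellular antagonists, Fst and Cer1 were higher. Cer1 was above 1 FPKM only in OSKM-ESCs of day 38 (2.05 and 2.35). Fst, which encodes the Activin-binding protein follistatin, was 7.6 to 41.7 FPKM in OSKM-ESCs and 0.877 to 1.62 in 2iL-ESCs (difference 3.04 ± 0.30, adjusted p = 5.02e-06). Activin genes themselves were low: Inhba stayed at or under 0.213 FPKM in all ESC libraries, and Inhbb was 0.155 to 0.70 FPKM in OSKM-ESCs and 1.38 to 2.49 in 2iL-ESCs (difference -0.92 ± 0.09, adjusted p = 5.05e-06). In MEFs Inhba was 42.7 and 47.7 FPKM, Inhbb 14.6 and 12.8, and Fst 64.0 and 72.2. Feeder fibroblasts were used in these cultures, and their part in the Fst difference was not tested. Of 9 intracellular inhibitors 4 were higher (Skil, Ski, Tgif2 and Smurf2), with Skil at 0.82 ± 0.15 on the log2 scale (adjusted p = 0.000544), and Nedd4l, a ubiquitin ligase for SMAD2 and SMAD3, fell by 1.18 ± 0.09 on the log2 scale (adjusted p = 7.27e-07). Of the receptors tested, Acvr2a was higher and Acvr1b was lower, and the coreceptor gene Cfc1 and the receptor gene Acvr1c were under the filter.

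**Figure D4:**
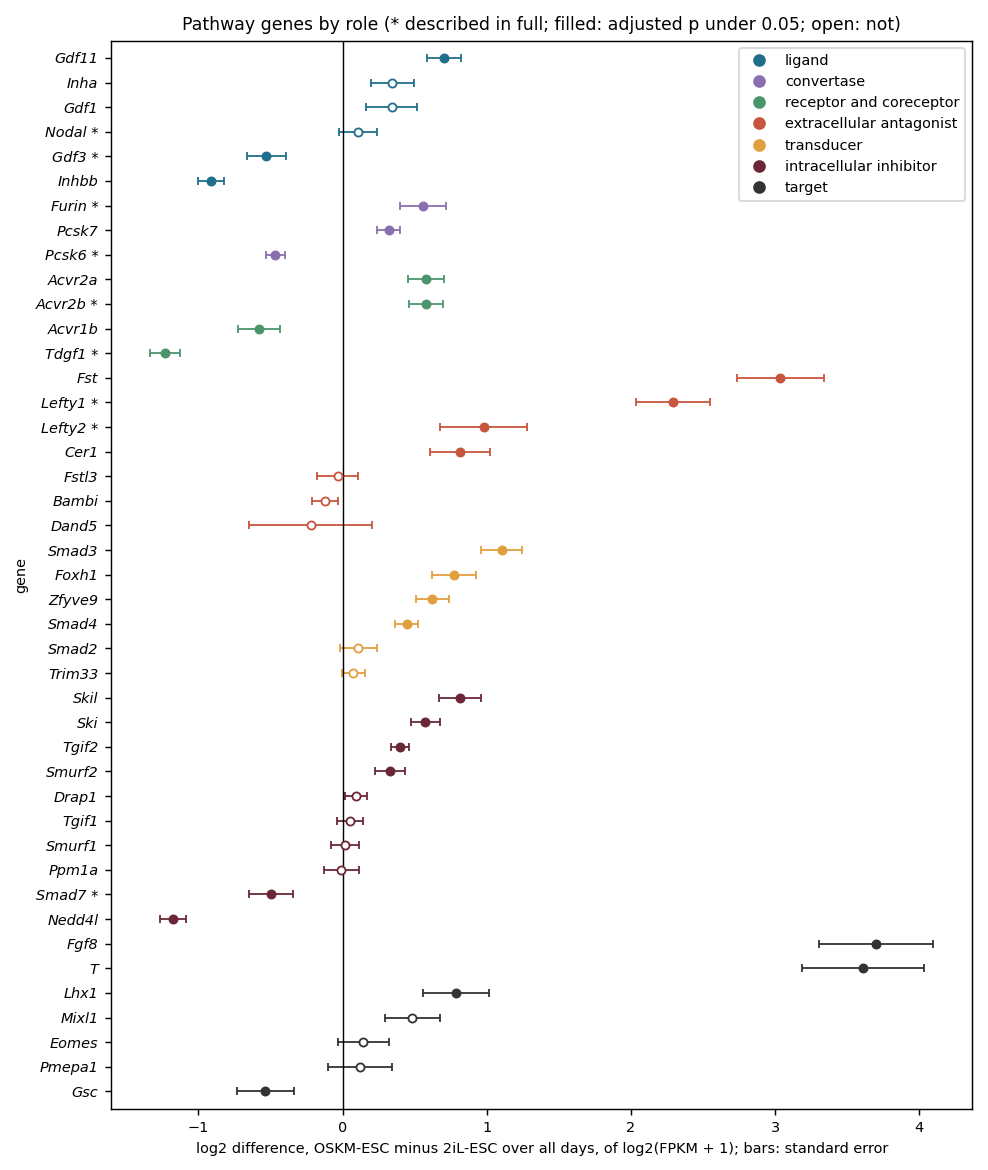
Difference between OSKM-ESCs and 2iL-ESCs over all days (x axis, log2 of FPKM + 1) for 43 pathway genes tested (y axis), coloured by role. Points are estimates from 6 libraries against 6 with standard errors, and filled points passed an adjusted p of 0.05. Fgf8, T and Fst are farthest to the right, and Tdgf1 and Nedd4l farthest to the left.

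By day, 12 of 26 listed genes tested were higher and 2 lower at day 18, 10 of 29 higher and 7 lower at day 25, and 19 of 32 higher and 3 lower at day 38. The shares of all genes were 25.7% higher and 17.7% lower at day 18, 20.7% and 25.3% at day 25, and 34.6% and 25.2% at day 38. In the iPSCs, 4 of 31 were higher (Smad3, Foxh1, Skil and Fgf8) and none was lower, against 5% and 2.96% of all genes. Smad3 was 12.2 and 11.0 FPKM in OSKM-iPSCs against 2.73 and 2.29 in 2iL-iPSCs, a rise of 1.85 ± 0.21 (adjusted p = 0.015). Skil, which represses SMAD targets, rose by 1.35 ± 0.17 (adjusted p = 0.0178), and Fgf8 by 1.88 ± 0.30 (adjusted p = 0.0287). T was 3.53 and 0.659 FPKM in OSKM-iPSCs and 2.04 and 1.23 in 2iL-iPSCs, and Fst was 3.03 and 1.72 against 2.44 and 0.938. The clones overlapped for both genes. Against MEFs, 7 of the 31 listed genes tested were higher and 14 lower in OSKM-iPSCs, and 6 were higher and 17 lower in 2iL-iPSCs. All genes gave 34.0% higher and 26.4% lower in the first comparison, and 40.6% and 37.4% in the second.

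Patterns were compared over the 16 ESC and iPSC libraries by Pearson's r of log2(FPKM + 1), as a description over libraries that share media, days and a cell line. Lefty1 and Lefty2 had r = 0.795, Lefty1 and Furin 0.872, and Pcsk6 and Smad7 0.866. Tdgf1 ran against Lefty1 (r = -0.775), and Gdf3 ran against Lefty2 (r = -0.749) and Acvr2b (r = -0.712). Nodal was closest to Furin (r = 0.712) and weakly related to Lefty2 (r = 0.288). Among 11770 genes above 1 FPKM in at least 8 of the libraries, the 5 most like Lefty1 were Obsl1 (0.987), Amotl1 (0.976), Tmem9 (0.966), Nfxl1 (0.963) and the pathway's own Smad3 (0.963). Those most like Lefty2 were Copa (0.98), Il17rc (0.942), Aig1 (0.94), Pter (0.925) and B3gnt5 (0.921). Nodal was best matched by Myo1e (0.892), Keap1 (0.865), Fkbp9 (0.848), Irf2bp2 (0.845) and Retreg1 (0.84).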

How the data were processed

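Poly-A RNA-Seq libraries were made by the authors with a NEBNext kit that does not mark strand. Reads were aligned to GRCm38 with STAR 2.7.1a, unique reads were kept, and StringTie 2.0 gave the deposited FPKM values per gene; the annotation version is not given in the sources used here, and coordinates match GENCODE M21. The deposited coverage, mean reads per base without normalization, was used only to compare libraries and to set single genes beside their FPKM. Rows of 11 repeated gene IDs were summed, and 2 genes with a failed value were left out, which leaves 55469. All 9 members were above 1 FPKM in at least 1 library of each comparison.

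The members and the lists of pathway and marker genes were chosen with earlier results of these data known; 1 listed pathway gene is not reported here and was left out of the list. limma 3.58.1 in R 4.3.3 modelled log2(FPKM + 1), with a trended prior variance, for genes above 1 FPKM in 1 or more of the libraries at hand; each fit held only the groups compared, and day was a covariate over all days; fold changes of low genes are understated on this scale. Calls had a Benjamini-Hochberg adjusted p under 0.05 over all genes tested. Cuffdiff, which the study used, needs reads, so limma took its place. Two-sided exact permutation tests of the mean log2 value used scipy 1.17.1, took no account of day and were not adjusted over the 9 members. Alternatives covered pseudocount, filter, scaling, TPM recomputed from the deposited FPKM, fit, cutoff and each library left out; leaving out each day was added after seeing the data. Other pathway genes named were up to 5 per direction in ESCs, called and without overlap, and up to 3 in iPSCs; others named beside counts were chosen after their values were seen. For pattern likeness the 5 genes with the highest r to Nodal, Lefty1 and Lefty2 were named. The fits were tested on simulated data. Nothing in the labels says that the 2 libraries of a day were separate cultures from the start, so p-values measure the spread between these libraries, which may be partly technical. Replicate libraries shared no identical values.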

Additional observations from a re-analysis of the deposited data

Results flagged for a closer look

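Levels of 9 genes in 2 sets of 6 ESC libraries gave 18 sets, and in 1 of them a single library stood apart by Dixon's criterion: Nodal in OSKM-ESCs, where library 2 of day 18 was at 28.3 FPKM and the next was 24.4. Chance gives such a flag in about 1 of 20 sets. Without that library the day 18 difference of Nodal was 0.45 on the log2 scale and did not pass (adjusted p = 0.0539, limma).

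For 6 members the difference between media itself differed between days by the interaction test given above. The log2 difference spanned 0.98 over the 3 days for Nodal, 1.01 for Gdf3, 0.72 for Tdgf1, 2.03 for Lefty1, 2.46 for Lefty2 and 1.05 for Furin. The sign turned at day 25 for Nodal and Lefty2, but their day 25 calls were lost under some alternatives. For Nodal these were no filter on low values (adjusted p = 0.0597), OSKM-ESC library 2 left out (0.0618) and either 2iL-ESC library left out (0.102 and 0.255), and for Lefty2 a single fit of all 9 groups (0.596) and either 2iL-ESC library left out (0.182 and 0.19). The day 18 call of Nodal was lost without OSKM-ESC library 2 and without either 2iL-ESC library (0.0539, 0.111 and 0.0962). Furin also differed between cell types, with a log2 difference larger by 0.80 in iPSCs than in ESCs (adjusted p = 0.041, limma). It was 1 of 9 members, against 14.2% of all genes, and did not pass with a pseudocount of 0.1, without a filter, after median-ratio scaling or on TPM.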

How the results depend on the processing

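Depth in reads is unknown, and 2 libraries per group limit each comparison by day and of clones. The difference over all days of ESCs kept its direction under the scaling, filter, pseudocount and fit alternatives for the 9 members, and for 8 of them its call. With the study's cutoff (more than 2-fold, unadjusted p under 0.05) 2 members were higher and 1 lower over all days, 0 were lower at day 18, 1 higher and 1 lower at day 25, 2 lower at day 38, and 1 lower in OSKM-iPSCs against MEFs. Without a filter on low values 1 member was higher and 3 lower at day 25, where 2490 of all 24654 genes were higher and 2948 lower. It also gave 2 members that differed between days in OSKM-ESCs, for which the share over all genes was not counted. That setting called 0 members in the iPSCs, and also 0 of all 25331 genes. In the iPSCs 6 of 9 members had an unadjusted p under 0.05. For this count and for those with the study's cutoff, the share over all genes was not counted. They therefore say nothing particular about the members. limma without trend gave 1 higher at day 25 and 1 higher and 0 lower in iPSCs. Over all genes it gave 2596 of 13098 higher at day 25, and 596 higher and 355 lower of 13653 in iPSCs. Quantile normalization gave 1 higher in iPSCs. All 9 groups in a single fit gave 4 higher and 4 lower there, but 3928 of all 15567 genes were then higher and 2361 lower. Over all genes the iPSC split in the main fit was 683 higher and 404 lower. It was 555 and 517 after median-ratio scaling and 434 and 444 after quantile normalization. On TPM 2 members were lower in 2iL-iPSCs against MEFs, where 5672 of all 14224 genes were lower. The Furin difference between cell types was called in 0 members with a pseudocount of 0.1, no filter, median-ratio scaling or TPM. Without day 18, 2 members were higher over all days and the Nodal difference was -0.13, with 3583 of all 13738 genes higher. Without day 25, 5 members were higher (Nodal, at 0.36, adjusted p = 0.0188, limma, was added) and 3 lower. Of all 13634 genes, 4441 were then higher and 3009 lower. Without day 38, 2 members were higher and 2 lower, and of all 13564 genes 2955 were higher and 2738 lower. The day 25 Furin difference, near 0, became 0.0061 after median-ratio scaling and 0.073 after quantile normalization.

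With 1 library left out at a time, 2 to 4 members were higher and 1 to 2 lower at day 18, 1 to 2 higher and 1 to 4 lower at day 25, and 0 to 1 higher and 0 to 1 lower in the iPSCs. In OSKM-iPSCs against MEFs 0 to 7 were higher and 0 to 2 lower. The lowest counts came without either 2iL library at day 18 and without 2iL library 1 at day 25 (for lower calls). They also came without either 2iL-iPSC clone and without either MEF library. In such a fit a lone library is assumed to vary like the other group. Calls over all genes also fell in these fits, so their low counts are not particular to the members. In the iPSCs the Tdgf1 call was also lost without OSKM-iPSC clone 3 (difference -0.89), a fit in which calls over all genes rose. At day 25 the Acvr2b call was lost without OSKM-ESC library 1 (difference 0.29), where higher calls over all genes rose. Differences near 0 turned: Smad7 at day 18 ranged from -0.50 to 0.32, Gdf3 at day 25 from -0.14 to 0.0086 and Furin at day 25 from -0.17 to 0.076. Counts over all days and at day 38 were unchanged without any 1 library. The cause of these changes was not tested.

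Same-numbered libraries of a day correlated at 0.131, 0.0904 and 0.012 in their deviations (days 18, 25 and 38), so the numbers were not taken as pairs. A replicate block left 4 members higher and 4 lower over all days, gave 5 higher and 3 lower at day 18, and moved no count of members by over 1.5 times.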
